A study of Mus musculus with 8 samples.

Results

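B cells fill the follicles of Peyer's patches, the lymphoid tissue of the small intestinal wall, and 31 genes that define these cells or carry the signal of their antigen receptor were followed here. They were taken as the probe sets annotated to exactly 1 of the listed genes. Of the 31 genes, 30 had such a probe set and all 30 passed the intensity filter, which is set on the mean over all arrays. Lyn, a Src family kinase that starts receptor signalling, was not analysed here. The 30 genes held 66 of the 45101 probe sets of the array, and 60 of these 66 were among the 22518 that passed the filter and were tested. Each gene is represented below by its brightest tested probe set, and other probe sets are given for some of the genes.

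Total RNA of Peyer's patches from C3H/Hej mice was hybridised to 8 single-colour Affymetrix arrays, 1 for each sample. The inbred strain C3H/Hej carries a Tlr4 that responds poorly to lipopolysaccharide. The mice were male and female and 6 weeks old at the start. The mice of 6 samples were gavaged with OVA, or ovalbumin, the main protein of egg white and a common model allergen, at 40 mg/kg body weight each day for 28 days, and those of the 2 controls with normal saline over the same days. Females comprised control 7 and OVA 2 and 12, and males comprised control 8 and OVA 1, 5, 8 and 13, by the replicate numbers of the labels. Each sex thus has 1 control sample. The labels do not say whether a sample is 1 mouse or a pool, nor from which stretch of gut the patches came, so p-values measure only the spread between these samples. Where mice are named with values below, the word stands for samples, and n counts samples. The extraction text in the labels names another tissue, brain cortex of a patient. Of 9 neuron and glia genes with a probe set, 4 passed the filter: Stmn2, Syt1, Gap43 and Mbp. Mbp was the brightest of these, with a mean intensity of 178 in the controls and 178 in the OVA samples. Rbfox3, Snap25, Map2, Gfap and Tubb3 did not pass. In these bulk samples, fewer cells of a type and less RNA per cell cannot be told apart.

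A mature B cell carries membrane IgM, whose heavy chain is encoded by Ighm, bound to the signalling chains Cd79a and Cd79b. When antigen crosslinks the receptor, the Src family kinases Lyn and Blk phosphorylate these chains, Syk docks on them, and the adaptor Blnk brings Btk and the phospholipase Plcg2 together, which opens the calcium and NF-κB pathways. A coreceptor that includes Cr2 and Cd81 lowers the threshold. Cd22 and Cd72 recruit the phosphatase Ptpn6, which damps the signal, and Fcgr2b damps it as well. Ebf1 and Pax5 set up and hold B cell identity. In Peyer's patches, B cells of the follicles meet gut antigens carried in by M cells and are a main source of IgA-committed cells.

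The promoters of 4 members are shown as examples of the letters searched for: an E-box in Cd79a, the octamer in Vpreb3, both in Blnk, and the EBF palindrome with an E-box in Cd22. RefSeq windows of GRCm38.p6 were matched to 26 of the 30 genes in 32 windows, and the 250 bases before the annotated start were searched on both strands. Capitals mark the letters searched for: the EBF palindrome, the octamer ATGCAAAT bound by Oct factors, the PU.1 and Spi-B core GAGGAAGT, and the E-box CAGGTG bound by E proteins. The 4 motifs were counted separately and could overlap one another.
Cd79a (chr7:24897247-24897496, plus strand): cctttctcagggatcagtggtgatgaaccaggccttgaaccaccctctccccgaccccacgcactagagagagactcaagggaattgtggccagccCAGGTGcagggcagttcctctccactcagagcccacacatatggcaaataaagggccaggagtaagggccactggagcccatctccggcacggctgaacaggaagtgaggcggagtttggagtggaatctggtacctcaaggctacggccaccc
Vpreb3 (chr10:75948050-75948299, plus strand): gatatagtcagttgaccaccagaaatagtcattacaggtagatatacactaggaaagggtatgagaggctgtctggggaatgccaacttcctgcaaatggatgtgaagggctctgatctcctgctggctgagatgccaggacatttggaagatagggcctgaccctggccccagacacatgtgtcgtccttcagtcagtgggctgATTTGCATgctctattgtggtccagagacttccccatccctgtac
Blnk (chr19:40994222-40994471, minus strand): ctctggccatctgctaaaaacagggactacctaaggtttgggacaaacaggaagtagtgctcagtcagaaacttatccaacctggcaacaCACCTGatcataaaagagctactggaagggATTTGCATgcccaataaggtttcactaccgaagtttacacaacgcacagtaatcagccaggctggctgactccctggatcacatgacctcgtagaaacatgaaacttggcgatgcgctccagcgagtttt
Cd22 (chr7:30879029-30879278, minus strand): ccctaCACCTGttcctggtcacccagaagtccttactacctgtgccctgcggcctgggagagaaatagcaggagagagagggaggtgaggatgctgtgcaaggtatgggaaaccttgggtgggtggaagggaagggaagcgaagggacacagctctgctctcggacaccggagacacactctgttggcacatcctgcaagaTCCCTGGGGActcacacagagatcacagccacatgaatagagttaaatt
The E-box letters were found in the windows of 13 of the 26 genes, or 14 of 32 windows, against 17.2% of all 32851 windows of this length. The octamer was found in 2 member windows against 1.6% of all windows, the PU.1 and Spi-B core in 2 (Cd37 and Cd72) against 2.44%, and the EBF palindrome in 1 against 0.779%. A match of letters is a description and not a binding site.

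Arrays are described first because 2 of them stood apart. Intensities are given on the deposited linear scale, and differences on the scale of log2(intensity + 4.88), the added value being a pseudocount. Relative to the mean of the 2 controls, the median member was 0.88 higher on the log2 scale in female OVA 12 and 1.01 higher in male OVA 8. It was 0.28 higher in female OVA 2, 0.38 in male OVA 1, 0.24 in male OVA 5 and 0.023 in male OVA 13. Over all tested probe sets the same median ran from -0.0025 to 0.047 in the OVA arrays. So male OVA 13 lay at the level of the controls. In female OVA 12 and male OVA 8 the median member was close to 1 log2 unit higher. The 2 controls themselves lay at 0.075 (female) and -0.075 (male), a symmetry that follows from taking their mean as 0. Female OVA 12 and male OVA 8 were the 2 highest of the 8 arrays for 27 of the 30 members, against 19% of all tested probe sets. This pair was picked out because it led most members, so the comparison is a description and not a test. Male OVA 8 was the highest array for 18 members and female OVA 12 for 9. Male OVA 13 was the lowest of the OVA arrays for 21.

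**Figure D1:**
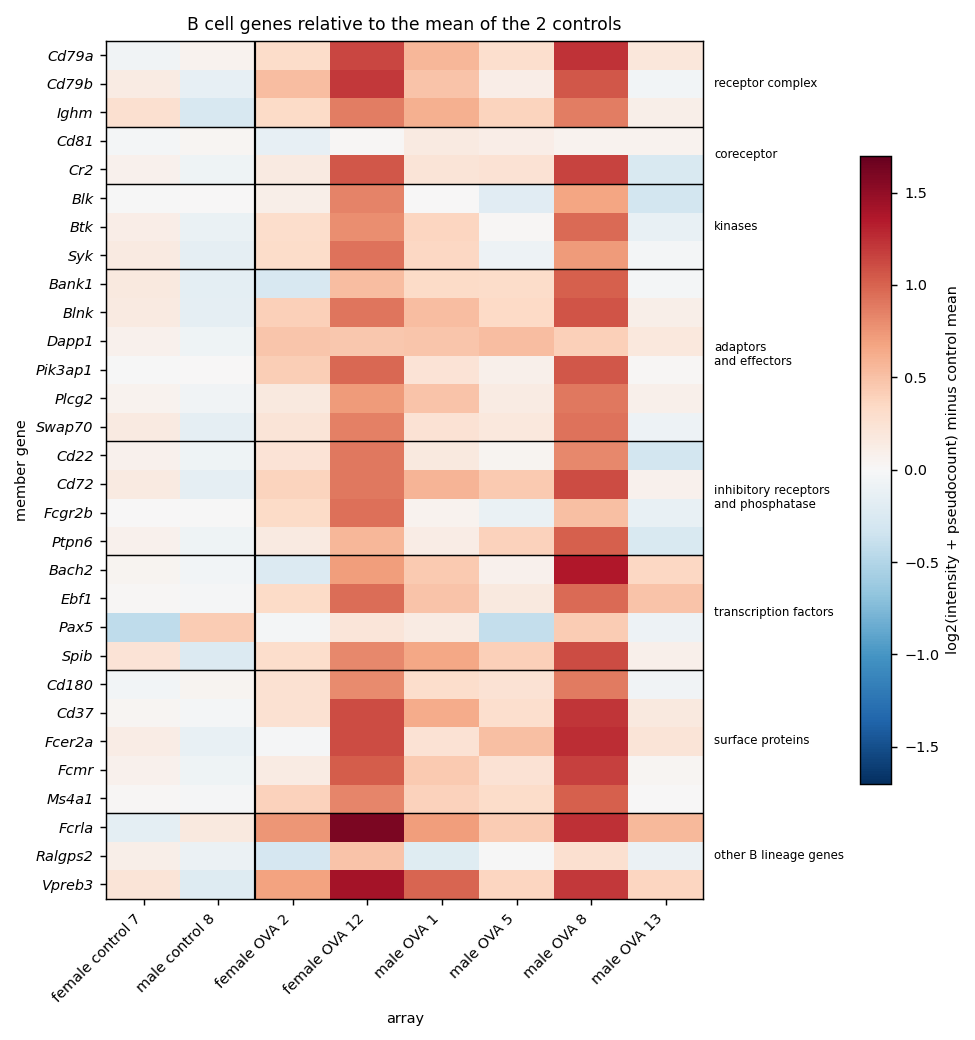
Each row is a member gene and each column an array, coloured by log2(intensity + pseudocount) minus the mean of the 2 controls, with rows grouped by role and a vertical line between controls and OVA mice. The columns of female OVA 12 and male OVA 8 are the darkest, with medians of 0.88 and 1.01, and that of male OVA 13 is close to the controls at 0.023.

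OVA was compared with saline to ask which genes of the patch differ after repeated oral exposure to the allergen. All 30 members lay higher in OVA mice, with a median log2 difference of 0.45, against 0.023 over all tested probe sets, of which 54.5% lay higher. With arrays centred on their medians, 28 of the 30 lay higher (Pax5 and Cd81 did not), against 48.1% of all tested probe sets. With quantile normalization 29 did (Pax5 did not), against 50.1%. No member passed the test at an adjusted p of 0.05 (limma with sex as a covariate, smallest adjusted p = 0.362), and neither did any other probe set (0% called). At an unadjusted p under 0.05, 7 of the 30 members were higher, against 6.88% of all tested probe sets, and none was lower, against 4.33%. Counted over probe sets, 14 of the 60 member probe sets were higher by that rule, and 2 of the 60 had a difference below 0. For 8 of the 30 members every OVA array lay above both controls, against 8.36% of all tested probe sets, and for none did every OVA array lie below both, against 5.01%. The members share cells and arrays, so they are not independent of one another. With 1 control in each sex, the spread behind these p-values came mostly from the OVA arrays. The controls were assumed to vary like them.

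Female OVA 12 and male OVA 8 were picked out as the highest arrays of most members, so leaving them out lowers the difference by construction. Without both, the median member was 0.21 higher and 27 of 30 members lay above 0. Over all tested probe sets the median was then 0.0092, and 52.4% lay above 0. In that setting 7 members had an unadjusted p under 0.05, against 5.9% of all tested probe sets higher by that rule. The median over members was 0.34 without female OVA 12 alone and 0.37 without male OVA 8 alone. The count of 7 depended on single arrays, controls included. It became 3 without female OVA 12 (4.06% of all tested probe sets higher by that rule), 3 without female control 7 (3.99%), 2 without male control 8 (7.43%) and 4 without male OVA 1 (5.04%). Of 30 members, 2 without male control 8 is no more than the share of all tested probe sets. The count was 12 without female OVA 2 (7.38%), 10 without male OVA 8 (7.71%) and 13 without male OVA 13 (8.29%). Male OVA 8 was the highest array for most members and male OVA 13 the lowest OVA array for most. Leaving out such an array, or female OVA 12 and male OVA 8 together, narrows the spread by construction. A small p is then easier to reach, so these counts are no check on the result. Leaving out 1 array moved the difference by more than 1.5 times for 14 members. Besides those given with their genes below, Spib went to 0.33, Ighm to 0.33 and Bach2 to 0.19 without male control 8, Ptpn6 to 0.22 without male OVA 8, and Cr2 to 0.29, Cd22 to 0.22 and Fcer2a to 0.36 without female OVA 12.

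**Figure D2:**
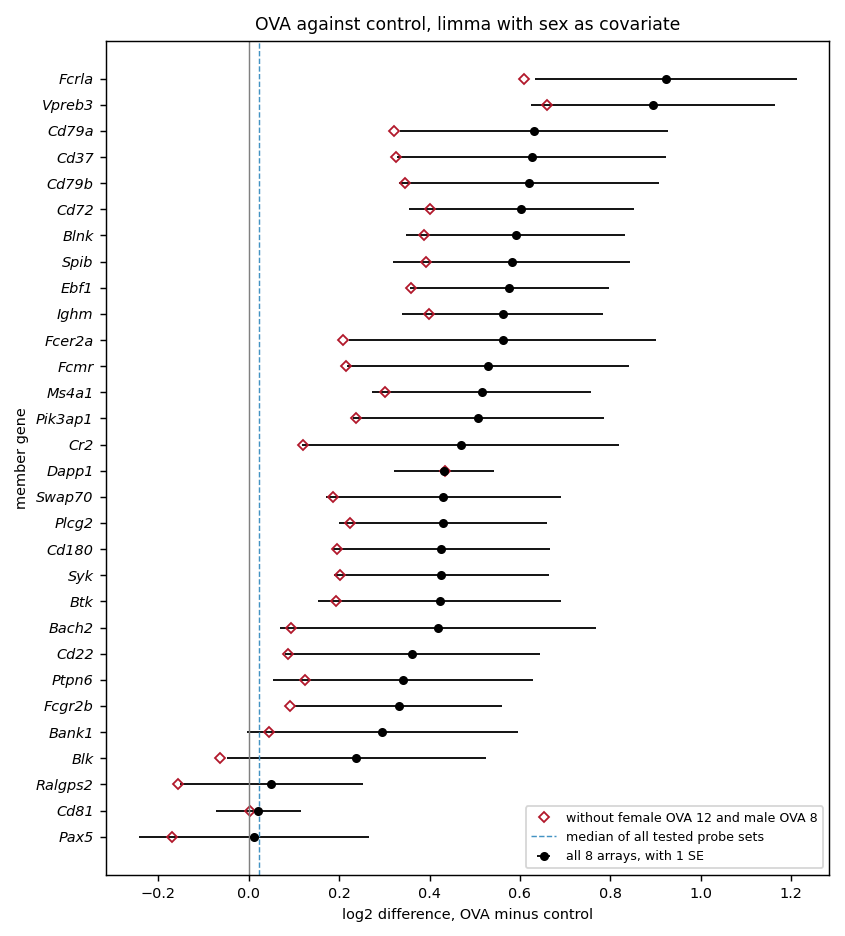
Filled points give the log2 difference of each of the 30 members, OVA minus control, with 1 SE from the limma fit on all 8 arrays, and open diamonds the value without female OVA 12 and male OVA 8. Fcrla (0.92) and Vpreb3 (0.89) lie farthest to the right, Ralgps2, Cd81 and Pax5 lie near the dashed median of all tested probe sets, and every diamond but that of Dapp1 is left of its point.

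The 3 genes of the antigen receptor itself had similar log2 differences, from 0.56 to 0.63. Cd79a, the Igα signalling chain, had intensities of 103 in female control 7, 112 in male control 8, 135 and 242 in female OVA 2 and 12, and 161, 132, 259 and 124 in male OVA 1, 5, 8 and 13. Every OVA array lay above both controls, with female OVA 12 and male OVA 8 far above the rest. Mean intensity was 108 ± 6.27 (SD, n = 2) among saline mice against 176 ± 59.7 (SD, n = 6) after OVA, 1.63 times as high, a log2 difference of 0.63 ± 0.30 (SE, adjusted p = 0.465). Without female OVA 12 and male OVA 8 it was 0.32. Cd79b, the Igβ chain, read 739.7 in female control 7, 609.8 in male control 8, 965 and 1544 in female OVA 2 and 12, and 940.4, 728, 1396 and 649.9 in male OVA 1, 5, 8 and 13. Here the groups overlapped, with male OVA 5 and 13 below the female control, and the log2 difference was 0.62 ± 0.29 (SE, adjusted p = 0.458). Both chains thus placed the arrays in nearly the same order, with female OVA 12 and male OVA 8 above the rest.

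Ighm, the IgM heavy chain, was read by 8 tested probe sets that did not agree on the order of the mice. The brightest, 1427351_s_at, gave 3009 in female control 7, 2079 in male control 8, 3147 and 4579 in female OVA 2 and 12, and 3795, 3249, 4569 and 2671 in male OVA 1, 5, 8 and 13, a log2 difference of 0.56 ± 0.22 (SE, adjusted p = 0.421). The probe set 1427329_a_at had the same high arrays, at 1743 in female OVA 12 and 1902 in male OVA 8, against 829.9 in male OVA 13. Another 5 (1427870_x_at, 1425247_a_at, 1425324_x_at, 1427756_x_at and 1427869_at) had female OVA 12 and male OVA 13 as the highest arrays instead. On 1425247_a_at male OVA 13 stood at 521 and male OVA 8 at 427, and female OVA 2 and male OVA 5 lay at 309.8 and 299, near the female control at 301 and below the male control at 380.1. The last, 1452535_at, read 151 in female control 7, 114 in male control 8, 209 and 213 in female OVA 2 and 12, and 316, 309, 236 and 302 in male OVA 1, 5, 8 and 13, with every OVA array above both controls and a log2 difference of 0.92 ± 0.19 (SE, unadjusted p = 0.00105, adjusted p = 0.314). Suffixes _s_at and _x_at mark Affymetrix probe sets that can bind more than one transcript, and heavy chain transcripts share constant and variable sequences, so which transcripts each probe set measured is uncertain. All 8 differences were above 0, from 0.19 to 0.92.

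**Figure D3:**
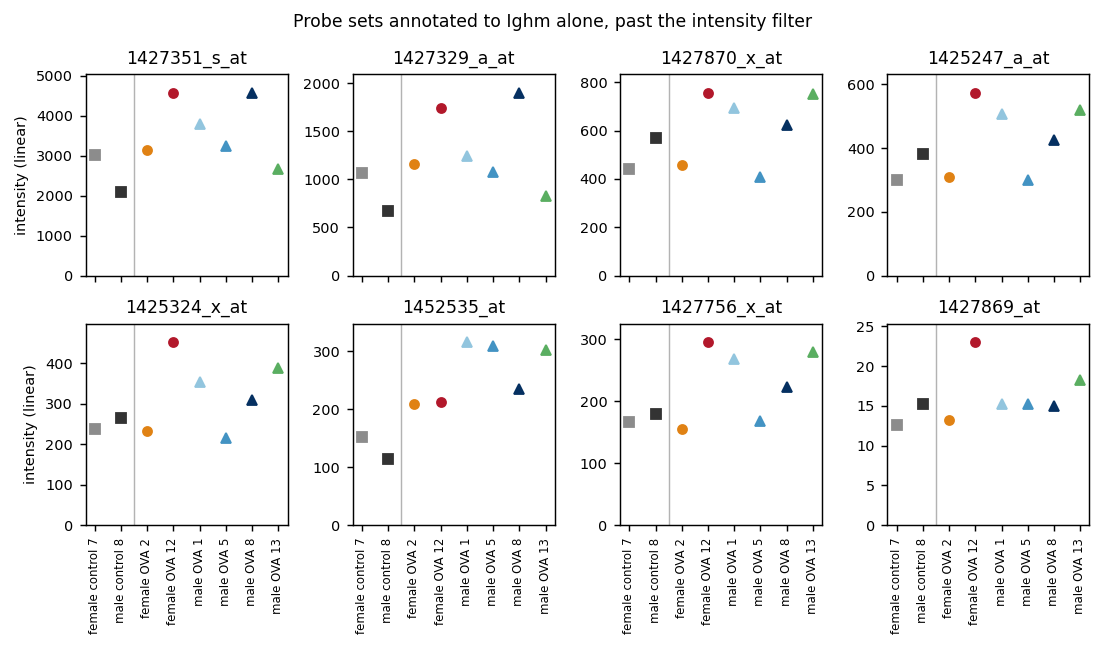
Each panel shows 1 of the 8 tested probe sets annotated to Ighm alone, with the linear intensity on each array (squares controls, circles female OVA, triangles male OVA; the vertical axis starts at 0). In the first 2 panels male OVA 8 is high and male OVA 13 low, while in 1425247_a_at male OVA 13 (521) is above male OVA 8 (427).

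Of the coreceptor, Cr2 and Cd81 were read. Cr2, the complement receptor CD21 of B cells and follicular dendritic cells, read 190.3 in female control 7, 170.4 in male control 8, 201 and 381 in female OVA 2 and 12, and 211, 215, 407 and 149 in male OVA 1, 5, 8 and 13. The high pair stood far above the controls and male OVA 13 lay below both, so the groups overlapped, with a log2 difference of 0.47 ± 0.35 (SE, adjusted p = 0.603), or 0.12 without the high pair. Cd81, a tetraspanin made by most cell types, read 857 in female control 7, 904 in male control 8, 799.8 and 893 in female OVA 2 and 12, and 982, 952, 914 and 914 in male OVA 1, 5, 8 and 13. It was near level across the mice, with the smallest OVA range among the brightest probe sets of the members, 1.23 between highest and lowest. The difference was 0.021 ± 0.094 (SE, adjusted p = 0.94), which turned to -0.011 when arrays were centred on their medians.

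Kinases that carry the signal inward overlapped between the groups. Blk, a Src family kinase of B cells, read 191 in female control 7, 194 in male control 8, 206 and 350.1 in female OVA 2 and 12, and 193, 167, 310.2 and 154 in male OVA 1, 5, 8 and 13. Female OVA 12 and male OVA 8 stood far above the controls, female OVA 2 slightly so, male OVA 1 lay between them and male OVA 5 and 13 lay below them. Its log2 difference was 0.24 ± 0.29 (SE, adjusted p = 0.75), -0.063 without the high pair, 0.033 without female control 7 and 0.48 without male control 8. Btk, the kinase lost in X-linked agammaglobulinaemia, read 84.0 and 71.7 in the controls, and from 70.7 through a median of 99.2 to 156 in the OVA arrays, a difference of 0.42 ± 0.27 (SE, adjusted p = 0.549). Syk, which docks on the phosphorylated receptor chains and also works in myeloid cells, read 319 and 257 in the controls, and from 268 through a median of 362 to 548 in the OVA arrays, a difference of 0.43 ± 0.24 (SE, adjusted p = 0.513). Of the other 3 tested Syk probe sets, 1418262_at gave 0.45 and 1457239_at 0.41, while the dim 1425797_a_at gave 0.012 ± 0.27 (SE, adjusted p = 0.989). For all 3 kinases the OVA arrays reached down to or near the controls.

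Adaptors and effectors downstream of the kinases held the member with the smallest p. Dapp1, an adaptor that binds the lipid products of PI 3-kinase, read 39.2 in female control 7, 35.3 in male control 8, 53.4 and 53.1 in female OVA 2 and 12, and 53.3, 55.4, 50.6 and 43.0 in male OVA 1, 5, 8 and 13. Every OVA array lay above both controls and male OVA 13 was the lowest of them. Unlike the 27 members led by female OVA 12 and male OVA 8, it was highest in male OVA 5 and female OVA 2, and the difference of 0.43 ± 0.11 (SE, unadjusted p = 0.00404, adjusted p = 0.362) was 0.44 without the high pair. Its second probe set read 0.10 ± 0.17 (SE), with overlapping groups, so the 2 probe sets of Dapp1 disagreed.

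Blnk, the adaptor that joins Btk to Plcg2, read 611 in female control 7, 489 in male control 8, 727 and 1033 in female OVA 2 and 12, and 788, 692, 1153 and 586 in male OVA 1, 5, 8 and 13. Male OVA 13 lay between the controls and the other OVA arrays lay above both, with a log2 difference of 0.59 ± 0.24 (SE, unadjusted p = 0.0386, adjusted p = 0.426). Plcg2, the phospholipase that makes the second messengers, read 339 and 309.9 in the controls, and from 346 through a median of 411 to 609 in the OVA arrays. Every OVA array was above both controls, the lowest narrowly so, and the difference was 0.43 ± 0.23 (SE, adjusted p = 0.502). Pik3ap1, the adaptor BCAP that links the receptor to PI 3-kinase, read 409 and 413 in the controls, and from 416 through a median of 519 to 857 in the OVA arrays, again without overlap, a difference of 0.51 ± 0.28 (SE, adjusted p = 0.507). Swap70, a signalling protein of B cells and mast cells, read 369.5 and 300.1 in the controls, and from 313 through a median of 393 to 639 in the OVA arrays, a difference of 0.43 ± 0.26 (SE, adjusted p = 0.531). Bank1, a B cell scaffold protein, read 322 in female control 7, 255 in male control 8, 237 and 416 in female OVA 2 and 12, and 359.8, 358, 586 and 279 in male OVA 1, 5, 8 and 13. Female OVA 2 was the lowest of all 8 arrays, and the difference of 0.30 ± 0.30 (SE, adjusted p = 0.701) was 0.57 in males alone and -0.039 in females alone.

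Inhibitory members lay on the same side as the activating ones. Cd22, a sialic acid-binding receptor that recruits phosphatases, read 441 in female control 7, 399 in male control 8, 493 and 788 in female OVA 2 and 12, and 473, 434, 742 and 336 in male OVA 1, 5, 8 and 13. Male OVA 5 lay between the controls and male OVA 13 below both, so that the difference of 0.36 ± 0.28 (SE, adjusted p = 0.618) came to 0.087 without the high pair. Cd72, another inhibitory coreceptor, read 211 in female control 7, 169.9 in male control 8, 247 and 355 in female OVA 2 and 12, and 284, 261, 413 and 200.1 in male OVA 1, 5, 8 and 13, with male OVA 13 alone not above both controls and a difference of 0.60 ± 0.25 (SE, unadjusted p = 0.0399, adjusted p = 0.428). Ptpn6, the phosphatase SHP-1 used in most blood cells, read 227 and 203 in the controls, and from 178 through a median of 260.1 to 437 in the OVA arrays, a difference of 0.34 ± 0.29 (SE, adjusted p = 0.643).

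Fcgr2b, the inhibitory Fc receptor of B cells, myeloid cells and follicular dendritic cells, was read by 4 tested probe sets. The brightest gave 129 in female control 7, 129 in male control 8, 162 and 251 in female OVA 2 and 12, and 134, 119, 186 and 117 in male OVA 1, 5, 8 and 13. The 2 controls were nearly equal, female OVA 12 was the highest array, and the difference was 0.33 ± 0.23 (SE, adjusted p = 0.576). It was 0.082 without female control 7, 0.63 without male control 8 and 0.17 without female OVA 12. On 1451941_a_at every OVA array lay above both controls, with 45.2 in female control 7, 41.8 in male control 8, 65.4 and 113 in female OVA 2 and 12, and 77.1, 57.2, 71.2 and 53.2 in male OVA 1, 5, 8 and 13, and the difference was 0.70 ± 0.21 (SE, unadjusted p = 0.01, adjusted p = 0.389). The size of the Fcgr2b difference therefore depended on the probe set, from 0.19 to 0.70, while all 4 lay above 0 and had female OVA 12 as the highest array.

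Among transcription factors, Ebf1, which specifies the B lineage, read 38.8 in female control 7, 37.4 in male control 8, 48.9 and 77.9 in female OVA 2 and 12, and 55.2, 43.2, 78.8 and 55.2 in male OVA 1, 5, 8 and 13. Every OVA array was above both controls and the difference was 0.58 ± 0.22 (SE, unadjusted p = 0.0291, adjusted p = 0.413). Its other 3 tested probe sets gave 0.36 to 0.61, with male OVA 8 highest on each. Spib, an Ets factor of B cells and M cells, read 898 and 654 in the controls, and from 810.2 through a median of 1113 to 1660.3 in the OVA arrays, a difference of 0.58 ± 0.26 (SE, adjusted p = 0.451). Only male OVA 13 lay below the female control, at 810.2.

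Bach2, a repressor that holds back plasma cell differentiation, read 235 in female control 7, 221 in male control 8, 194 and 375 in female OVA 2 and 12, and 313, 239.9, 596 and 294 in male OVA 1, 5, 8 and 13. Male OVA 8 was far above the others and female OVA 2 below both controls. This gave the widest range among the brightest probe sets of the members, 3.08 times between the highest and the lowest OVA array. The difference was 0.42 ± 0.35 (SE, adjusted p = 0.64). A dim Bach2 probe set, 1445460_at, had another pattern. It read 20.4 in female control 7, 20.9 in male control 8, 30.7 and 36.9 in female OVA 2 and 12, and 30.7, 34.0, 33.7 and 33.4 in male OVA 1, 5, 8 and 13, so that the OVA arrays lay close together and all above both controls, with a difference of 0.58 ± 0.10 (SE, unadjusted p = 0.000331, adjusted p = 0.303), the smallest p of any member probe set. Pax5, the factor that maintains B cell commitment, was dim and read 13.4 in female control 7, 28.6 in male control 8, 19.3 and 23.7 in female OVA 2 and 12, and 22.5, 13.8, 28.4 and 18.5 in male OVA 1, 5, 8 and 13. The controls differed by 2.13 times, more than on the brightest probe set of any other member. The OVA arrays lay between them, and the difference was 0.011 ± 0.25 (SE, adjusted p = 0.989). A second Pax5 probe set was as dim, between 12.4 and 16.3 on all arrays.

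On the brightest probe set, all 5 surface proteins of mature B cells had female OVA 12 and male OVA 8 as the highest arrays. Ms4a1, which encodes CD20, read 1325 in female control 7, 1279 in male control 8, 1704 and 2319.5 in female OVA 2 and 12, and 1713, 1614, 2645 and 1308 in male OVA 1, 5, 8 and 13. Male OVA 13 lay between the 2 controls and the other 5 above both, a difference of 0.52 ± 0.24 (SE, adjusted p = 0.464). Its dimmer probe set gave 1.00 ± 0.44 (SE, unadjusted p = 0.0478, adjusted p = 0.443), with a wider range, 3.90 times between the highest and the lowest OVA array. Cd37, a tetraspanin of mature B cells, read 304 in female control 7, 289.6 in male control 8, 355 and 644 in female OVA 2 and 12, and 463, 364, 694 and 333 in male OVA 1, 5, 8 and 13, with no overlap between groups on this probe set and a difference of 0.63 ± 0.30 (SE, adjusted p = 0.468). On its second probe set, 1425736_at, the difference was 0.65 ± 0.25 (SE, unadjusted p = 0.0315, adjusted p = 0.419), but female OVA 12 and male OVA 1 were the highest arrays and male OVA 13, at 109.7, lay below the male control at 123, so the groups overlapped. Cd180, a Toll-like receptor homologue that regulates B cell responses to lipopolysaccharide, was dim at 26.9 and 29.0 in the controls, and from 26.7 through a median of 35.1 to 55.6 in the OVA arrays, a difference of 0.43 ± 0.24 (SE, adjusted p = 0.516).

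Receptors for immunoglobulin on B cells showed overlap. Fcmr, the receptor for IgM, read 384 and 345 in the controls, and from 371 through a median of 465 to 825 in the OVA arrays, a difference of 0.53 ± 0.31 (SE, adjusted p = 0.526) that was 0.21 without the high pair. Fcer2a, which encodes CD23, the low affinity IgE receptor of follicular B cells, read 147 in female control 7, 123 in male control 8, 132 and 297 in female OVA 2 and 12, and 160.2, 193, 326 and 157 in male OVA 1, 5, 8 and 13. Female OVA 2 lay between the controls and the high pair stood far above both, so that the difference of 0.56 ± 0.34 (SE, adjusted p = 0.532) was 0.21 without the high pair. It was 0.68 in males alone and 0.42 in females alone.

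The remaining B lineage genes held the largest differences and 1 of the smallest. Fcrla, an intracellular Fc receptor-like protein of germinal centre B cells, read 49.4 in female control 7, 63.3 in male control 8, 97.9 and 180.2 in female OVA 2 and 12, and 95.1, 77.1, 139 and 84.5 in male OVA 1, 5, 8 and 13. No OVA array overlapped with the controls, mean intensity was 56.4 ± 9.85 (SD, n = 2) among saline mice against 112 ± 39.6 (SD, n = 6) after OVA, and the difference was 0.92 ± 0.29 (SE, unadjusted p = 0.0116, adjusted p = 0.396), or 0.61 without the high pair. It was 0.57 without female control 7, a value that several other members exceed in that setting, and 1.34 without male control 8. Its other 2 probe sets gave 0.72 and 0.61, and on the second of these, 1419908_at, male OVA 13 (24.6) lay below both controls (27.6 and 24.8). Vpreb3, related to the surrogate light chain, read 142 in female control 7, 103 in male control 8, 197 and 330.4 in female OVA 2 and 12, and 246, 158, 284 and 157 in male OVA 1, 5, 8 and 13. The groups again did not overlap, mean intensity was 123 ± 27.1 (SD, n = 2) among saline mice against 229 ± 70.5 (SD, n = 6) after OVA, and the difference was 0.89 ± 0.27 (SE, unadjusted p = 0.00967, adjusted p = 0.389), or 0.66 without the high pair. Ralgps2, a Ral exchange factor, read 201 and 175 in the controls, and from 153 through a median of 180.4 to 265 in the OVA arrays, and its difference of 0.05 ± 0.20 (SE, adjusted p = 0.933) had 2 other probe sets just below 0.

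**Figure D4:**
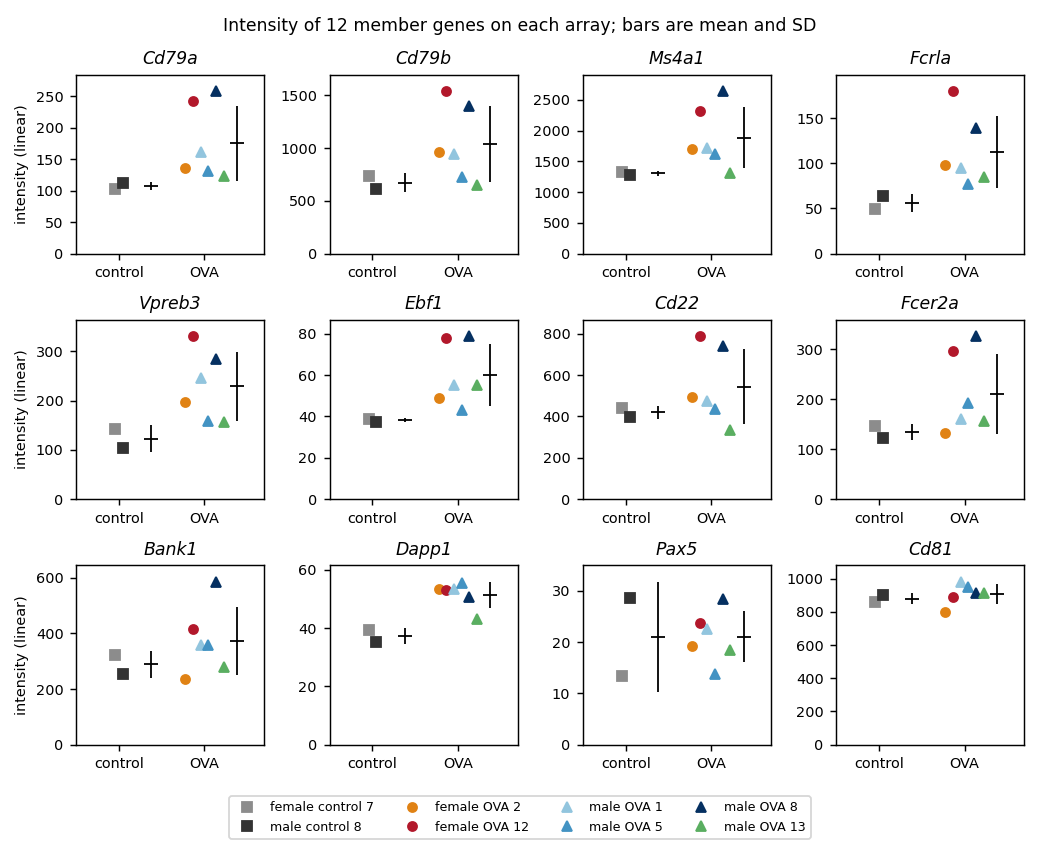
Each panel gives the linear intensity of 1 member gene on each array (squares controls, circles female OVA, triangles male OVA), with the mean and SD of each group as a bar beside the points; the vertical axes start at 0. In Cd79a, Fcrla, Vpreb3, Ebf1 and Dapp1 no OVA array falls to the level of a control, while in Cd22, Bank1, Pax5 and Cd81 the groups overlap.

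By role, the median log2 difference was 0.62 for the receptor complex (3 genes), 0.25 for the coreceptor (2), 0.42 for kinases (3), 0.43 for adaptors and effectors (6), 0.35 for the inhibitory group (4), 0.50 for transcription factors (4), 0.53 for surface proteins (5) and 0.89 for other B lineage genes (3). The 13 measured members listed as also expressed outside the B lineage had a median of 0.43 and the other 17 a median of 0.56. This split is rough, since the 17 are not all confined to B cells and include Spib, which M cells also make. These medians are descriptions of overlapping ranges and were not tested against each other.

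The spread among OVA mice was wider than that between the 2 controls. The highest OVA array was more than 1 log2 unit above the lowest for 21 of 30 members, against 7.24% of all tested probe sets. The median ratio of the highest to the lowest OVA array was 2.09 for the members and 1.41 over all tested probe sets, and that of the 2 controls was 1.12 and 1.13. A range grows with the number of arrays, so 6 OVA arrays and 2 controls are not on equal terms. The count of 21 fell to 9 without male OVA 8, to 10 without male OVA 13 and to 16 without female OVA 12. It was 17 with median centring. Male OVA 8 was the highest array for 18 members and male OVA 13 the lowest OVA array for 21. Leaving such an array out therefore narrows the range by construction. The share of all tested probe sets was not counted in these settings.

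Other genes of the same pathway, from a list of 30, were read in 25. Of these 25, 19 lay higher and 6 lower (median 0.24), with 3 higher and 1 lower at an unadjusted p under 0.05 and none passing after adjustment. Over all tested probe sets 54.5% lay higher, and 6.88% were higher and 4.33% lower at an unadjusted p under 0.05. The count of 1 lower is near that share. Malt1, the protease of the complex that leads to NF-κB, had a mean intensity of 34.8 ± 3.28 (SD, n = 2) among saline mice against 58.6 ± 11.5 (SD, n = 6) after OVA, a log2 difference of 0.69 ± 0.18 (SE, adjusted p = 0.375). The adaptor Lat2 had a difference of 0.91 ± 0.27 (SE, adjusted p = 0.389), and Vav3, a guanine nucleotide exchange factor, one of -0.39 ± 0.11 (SE, adjusted p = 0.375). Of 23 measured B cell regulators and surface genes outside the members, all 23 lay higher (median 0.46). Against the share of 6.88% higher over all tested probe sets, 3 had an unadjusted p under 0.05. These were the transcription factors Bcl11a, with 0.57 ± 0.22 (SE, adjusted p = 0.414), and Foxo1, with 0.46 ± 0.18 (SE, adjusted p = 0.417), and the receptor Fcrl1, with 0.60 ± 0.26 (SE, adjusted p = 0.437). Genes of early B cell precursors were mostly too dim: Rag1, Rag2, Dntt, Igll1 and Vpreb1 did not pass the filter, and Il7r and Cd93, which other cells also make, did.

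Markers of several other cell types varied together with the members, and their part in the result was not tested. Over all tested probe sets, 54.5% lay higher in OVA mice. Of 6 pan-leukocyte genes all 6 lay higher (median 0.55), and their summed intensity was 5545 and 6523 in the controls and 6033 to 11995 in OVA mice, with the highest sums in male OVA 8 and female OVA 12. Of 14 T cell genes 13 lay higher (median 0.26), with sums of 1070 to 1213 in controls and 1181 to 1747 in OVA mice. All 8 genes of follicular dendritic cells and stroma lay higher (median 0.50), with sums of 5431 to 6614 and 6332 to 11080. By sum and by median over genes, these 3 lists were, like the members, highest in female OVA 12 and male OVA 8. Single T cell genes did not all follow. Cd8b1, with the smallest p of its list, differed by 0.58 ± 0.11 (SE, adjusted p = 0.303, limma) and was highest in male OVA 5. Cd8a, with a difference of -0.017, was highest in male OVA 13.

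Epithelial genes ran the other way, while 54.5% of all tested probe sets lay higher. All 16 lay lower in OVA mice (median -0.23), with sums of 47447 to 48052 in controls and 35213 to 48174 in OVA mice, lowest in male OVA 8. Some were near level, such as Fabp2 (-0.011) and Cdh1 (-0.074). Fabp1, at 4906 in male OVA 8, lay there above both controls (4699 and 4045). All 8 smooth muscle genes lay lower as well (median -0.22), with sums of 4544 to 5222 and 2909 to 4951, lowest in male OVA 5. Macrophage and dendritic cell genes lay higher in 6 of 12 (median 0.023), with sums of 6786 to 7384 and 6893 to 8852, and Itgam and Zbtb46 below the filter. Plasma cell genes lay higher in 4 of 10 (median -0.026), with sums of 16714 to 17037 and 12927 to 17626. The macrophage and dendritic cell sum was highest in male OVA 8 and female OVA 12, but Lyz2 made up 5137 of it in male OVA 8, and the median over the list was highest in male OVA 1 (0.22), then female OVA 12 (0.20), with male OVA 8 at 0.12. The plasma cell sum was highest in male OVA 5 and lowest in female OVA 2, where Igha made up 7068 of it. The 3′ to 5′ ratio of beta-actin, a measure of RNA integrity, was 1.43 and 1.54 in the controls, 1.58 in male OVA 8, 1.32 in female OVA 12 and between 1.29 and 1.37 in the remaining 4. That of Gapdh was 0.90 and 1.00 in the controls, 0.96 in male OVA 8, 0.87 in female OVA 12 and 0.83 to 0.89 in the remaining 4. Both ratios were thus highest in the controls and male OVA 8, and their part in the result was not tested.

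**Figure D5:**
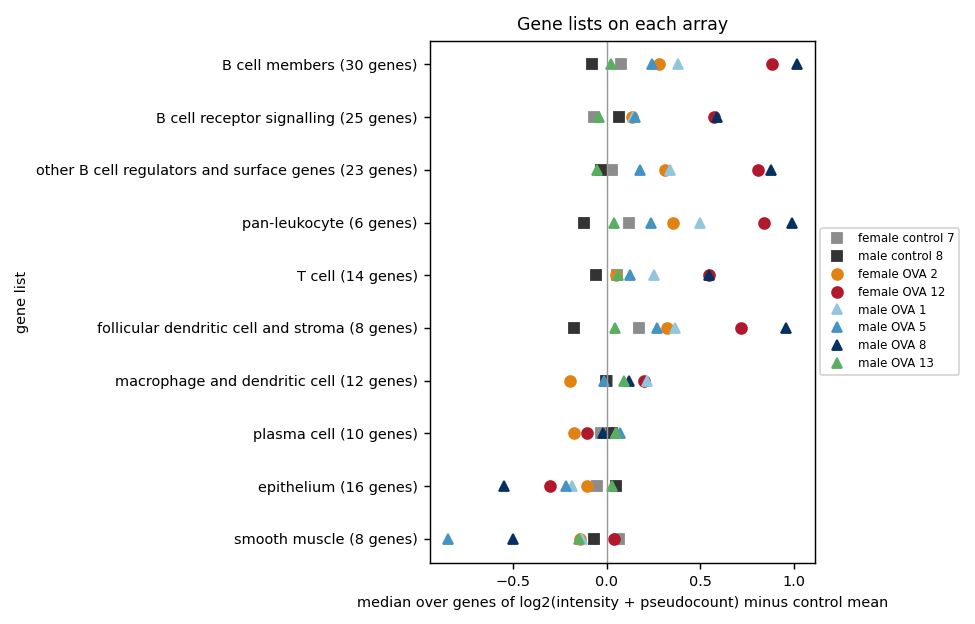
Each row is a gene list and each symbol an array, placed at the median over the list's genes of log2(intensity + pseudocount) minus the control mean. Female OVA 12 and male OVA 8 lie far right for the members (0.88 and 1.01), pan-leukocyte, T cell and follicular dendritic cell and stroma lists, and male OVA 8 far left for epithelium (-0.55); the controls mirror each other because their mean is set to 0.

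Sex made no difference that passed the test among the members. Females lay higher than males for 26 of 30 members, with a median of 0.14 against -0.016 over all tested probe sets. The male control lay below the female control for 23 of 30 members, and female OVA 12 is 1 of 2 female OVA arrays. No member passed after adjustment (smallest adjusted p = 0.901, limma), against 0.0533% of all tested probe sets. None had an unadjusted p under 0.05 on its brightest probe set, against 5.41%. The OVA effect in males minus that in females had a median of 0.0095 over the members, against -0.052 over all tested probe sets. Of the 30 members, 15 lay above 0. None passed after adjustment (smallest adjusted p = 0.626), as for all tested probe sets (0% called), and none had an unadjusted p under 0.05 on its brightest probe set, against 8.2% of all tested probe sets. Over all 60 member probe sets 3 did: 1452535_at of Ighm at 0.83, 1457239_at of Syk at -0.82 and 1425736_at of Cd37 at -0.99. Each sex has 1 control, so this comparison assumes that a lone control varies like the other arrays.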

How the data were processed

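The authors deposited probe set intensities on a linear scale, with MAS5 named per the submitters' processing notes. The scaling target, the background step and detection calls were not given in the sources used here. Identical values on 2 or more arrays occurred in 51.5% of probe sets, and in 13 of the 66 member probe sets. Symbols came from the platform annotation; the reference table held all 66 identifiers, with 0 symbols that differed. Intensities were taken to log2(value + 4.88), 4.88 being the 25th percentile of all values, so differences of dim genes are understated. After removal of 64 control probe sets, those whose mean log2 value exceeded the median (intensity 11.9) were tested. Differences come from limma 3.58.1 (lmFit, eBayes; R 4.3.3), additive in treatment and sex, two-sided, with Benjamini-Hochberg adjustment over all tested probe sets. The sex difference of the OVA effect came from a fit of 4 group means. The method was checked on simulated data. All 30 measured members were named, with the 3 genes of smallest p in each of the other lists available for naming. Members, roles and lists were chosen with earlier results of these data known. The labels give no batch, and the number of arrays limits precision. Python 3.11.15, pandas 2.3.3 and matplotlib 3.10.9 drew the figures.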

Additional observations from a re-analysis of the deposited data

Results flagged for a closer look

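Of 60 gene and group combinations examined for an array far from the others (30 members, all OVA arrays and male OVA arrays), 1 was marked, where chance marks about 1 in 20. In the OVA arrays, Dapp1 was lowest in male OVA 13, and the gap to the next array was 0.642 of the whole range. On its brightest probe set, Pax5 lay higher in both female OVA mice than in the female control and lower in all 4 male OVA mice than in the male control. The OVA effect in males minus that in females was -0.94 on the log2 scale (limma, unadjusted p = 0.0615, adjusted p = 0.626), so the difference did not pass the test. It rests on 2 single controls, at 13.4 and 28.6, in a dim probe set. Male OVA 8, at 28.4, lay only just below the male control. The second Pax5 probe set did not repeat the pattern, with 0.087 for the same contrast. On it male OVA 1, 5 and 8 (16.3, 14.6 and 14.6) lay above the male control (13.2) and male OVA 13 (12.4) below. Female OVA 2 there equalled the female control, at 14.6.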

How the results depend on the processing

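No member and no other probe set passed the adjusted threshold for OVA against control under any alternative run, and no member did for sex or for the sex difference of the OVA effect. With female OVA 12 and male OVA 8 left out together, the median difference over members moved from 0.45 to 0.21. Leaving out each array in turn gave medians of 0.34 to 0.59 and 27 to 30 members higher, against 50.8% to 57.4% of all tested probe sets. It gave 9 to 21 members with an OVA range above 1 log2 unit. Of 626 values of members under the alternatives 20 changed sign, in 5 members. Pax5 gave -0.0043 with quantile normalization and with array weights, -0.021 with median centring, -0.42 in males only and -0.17 without the high pair, and -0.42 to 0.52 leaving out each array. Cd81 gave -0.011 with median centring and -0.020 in females only (-0.020 to 0.057 leaving out each array). Ralgps2 gave -0.12 with array weights and -0.16 without the high pair (-0.092 to 0.20), Bank1 -0.039 in females only (-0.039 to 0.57) and Blk -0.063 without the high pair. Outside the members, in females only Il7r gave -0.049 and Cd93 0.018 (-0.049 to 0.89 and -0.27 to 0.018 leaving out each array). The causes were not tested. Scaling moved the median of all tested probe sets by under 0.1 log2. Without a control the sex difference of the OVA effect could not be fitted. No paired analysis was possible because the groups share only the number 8. Signal over background was not measured here.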
